A study of Homo sapiens with 17 samples.

Results

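The nuclear genes for oxidative phosphorylation subunits were followed in acRIP-seq of HEK293T cells, a human embryonic kidney line. In acRIP-seq, an antibody to the modified base N4-acetylcytidine (ac4C) pulls down poly(A) RNA (IP), which is sequenced beside the untreated RNA (input) and a pull-down with control immunoglobulin G (IgG). Members were all genes of the count table whose symbol begins with NDUFA, NDUFB, NDUFC, NDUFS, NDUFV, UQCR, ATP5, COX4, COX5, COX6, COX7 or COX8, or is SDHA, SDHB, SDHC, SDHD or CYC1, with the NDUFAF assembly factors left out. These were 93 of 23368 genes: 40 under complex I, 4 under complex II, 11 under complex III, 18 under complex IV and 20 under complex V. The rule used symbols alone and no measured value. It took in 84 named subunits, 4 pseudogenes or gene copies (ATP5EP2, ATP5L2, UQCRBP1 and UQCRHL), 2 readthrough genes (ATP5J2-PTCD1 and NDUFC2-KCTD14) and 3 genes of another function. Among the last, COX4NB is a subunit of an endoplasmic reticulum membrane complex, ATP5SL assists complex I assembly and ATP5S is a coupling factor associated with ATP synthase. Symbols are those of the table, and several have since been renamed (ATP5A1 to ATP5F1A, for example).

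Cells labelled WT were compared with cells labelled siTARDBP, in which an siRNA was directed at TARDBP, the gene for the RNA-binding protein TDP43 (siTDP43 below). Each was measured as input, IP and IgG, with 3 libraries a group and 2 for WT IgG, 17 in all. The study asks whether TDP43 brings NAT10, the ac4C-writing enzyme, to mRNA. The WT label names no control siRNA, so a response to transfection cannot be told apart from one to less TDP43, and no label says that replicates were separate cultures, so p-values measure the spread between these libraries.

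Oxidative phosphorylation makes most ATP of an aerobic cell. Complex I takes electrons from NADH and complex II from succinate, complex III passes them to cytochrome c and complex IV to oxygen. Complexes I, III and IV pump protons across the inner mitochondrial membrane, and complex V (ATP synthase) lets them flow back to make ATP. Most subunits are made in the cytosol from short, abundant nuclear mRNAs and are imported, and the rest are encoded in mitochondrial DNA. The 13 protein genes of mitochondrial DNA were not analysed here. Member mRNAs had a median exon length of 921 bases, against 2491.5 bases over the table.

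Transcription of these genes is known to be driven by the nuclear respiratory factor NRF1, by ETS-family factors such as GABPA, and by YY1. RefSeq promoters (GRCh38.p14, 250 bases before to 50 after the start) were found for 72 members and searched on both strands for letters of each factor's known site. The NRF1 letters GCATGCGC stood in 14 of the 72 (19.4%) and in 3.68% of the 27305 promoters. The ETS letters CCGGAAG stood in 21 (29.2%, against 12.2%) and the YY1 letters AAGATGGC in 12 (16.7%, against 3.52%). None of these motifs contains another, and a match is a description of the sequence, not a site. Promoter windows around the NRF1 letters follow for 4 members whose RNA values are given further on, each 30 bases on the gene's strand with the match in capitals.
ATP5I, chr4:674336-674365, minus strand: cgccgctgacgGCGCATGCgtgcgcccagc
SDHD, chr11:112086752-112086781, plus strand: cagctgtgtttGCGCATGCgcgacgggtgt
COX5B, chr2:97645915-97645944, plus strand: ggcagagctggGCATGCGCaatttccgccc
NDUFS6, chr5:1801350-1801379, plus strand: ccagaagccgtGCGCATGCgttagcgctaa
ATP5I and NDUFS6 carried the reverse complement GCGCATGC and COX5B the motif as spelled. SDHD carried both, overlapping, and only the first is in capitals. Capitals began at -78 (ATP5I), -110 (SDHD), -46 (NDUFS6) and -136 (COX5B) from the start site. The RNA of these 4 genes went different ways in the libraries, as described below for each.

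Libraries held 3013989 to 36583436 counts, fewest in siTDP43 IgG (3013989 to 3436811) and most in WT input (27718784 to 36583436). TARDBP fell by 0.57 on the log2 scale in siTDP43 input (SE 0.045, adjusted p = 6.55e-13, edgeR), from 149.7, 157 and 151.2 CPM to 98.6, 102 and 106 CPM. CPM here are counts scaled to the TMM library size over all 17 libraries. NAT10 RNA was higher in siTDP43 input, with 50.6, 52.2 and 51.6 CPM in WT input and 116, 108 and 111 in siTDP43 input. The part of this NAT10 difference in the results below was not tested. The summed level of 6 markers of HEK293T cells was 170 to 180 CPM in WT input, 2573 to 3146 in WT IP, 658 to 709 in WT IgG and 229 to 279 in the siTDP43 libraries. The other cells' lists were low: endothelial up to 2.57 CPM, fibroblast up to 16.2, leukocyte up to 42.3 and liver up to 21.3. In WT the marker sum differed between input, IP and IgG, and NEFM alone, a neurofilament gene, had 2443, 2854.5 and 2999 CPM in WT IP against a mean of 66.1 in WT input. The part of this difference in the results below was not tested.

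The share of a library's counts that fell on members was highest in the siTDP43 pull-downs. In WT input it was 3.66, 3.60 and 3.59% of counts, in WT IP 2.66, 2.59 and 2.58%, and in WT IgG 3.46 and 3.39%. In siTDP43 input it was 3.42, 3.43 and 3.61%, in siTDP43 IP 5.19, 5.23 and 5.27%, and in siTDP43 IgG 6.41, 6.41 and 6.42%. The inputs of both genotypes overlapped, while the WT IP libraries lay below and the siTDP43 IP and IgG libraries above every input. Complex II went the other way: its 4 genes took 0.125% ± 0.0021 (SD, n = 3) of WT input, 0.0332% ± 0.0012 of WT IP and 0.0353% ± 0.0020 (n = 2) of WT IgG. In siTDP43 they took 0.184% ± 0.0029 of input, 0.0798% ± 0.00050 of IP and 0.0403% ± 0.0020 of IgG (n = 3 each). The plot of member share by library and complex shows both. With no molecular identifiers, these shares are of reads and not of molecules, and in bulk RNA fewer copies of a transcript cannot be told apart from more of all others.

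**Figure D1:**
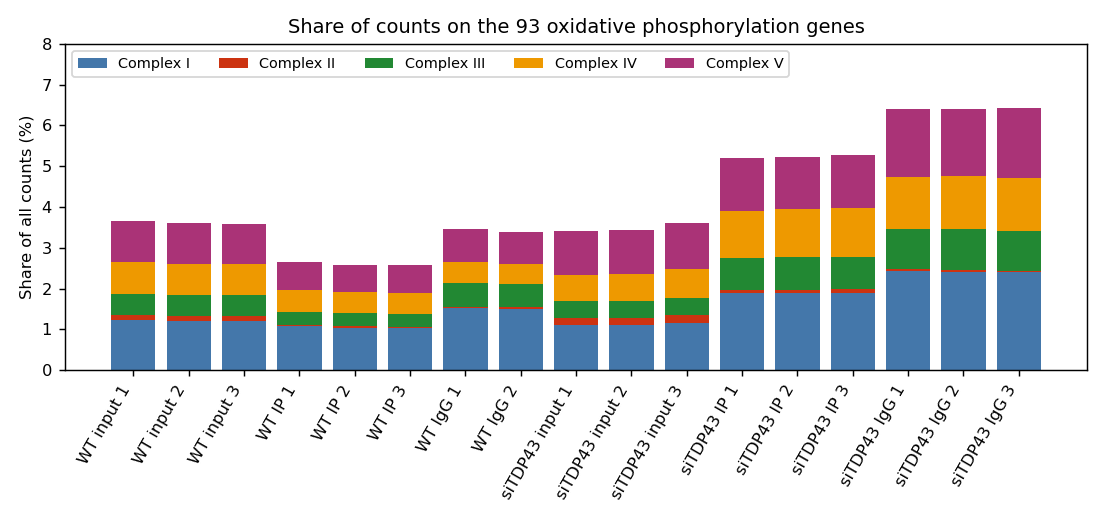
Share of each library's counts that fell on the members, in percent, with 1 stacked bar for each of the 17 libraries and 1 colour for each complex. The siTDP43 IP (5.19 to 5.27%) and siTDP43 IgG (6.41 to 6.42%) libraries lie above the inputs (3.42 to 3.66%) and WT IP (2.58 to 2.66%) below them.

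Levels in WT input, given per kb of exon so that genes can be compared, spanned a wide range. The highest of complex IV was COX7C, a small accessory subunit, at 2168 CPM per kb. Complex I was led by NDUFA1, a membrane-arm subunit, at 1378, and complex III by UQCRH, the hinge protein, at 1291. Complex V was led by ATP5B, the catalytic beta subunit, at 1233, and complex II by SDHB, the iron-sulfur subunit, at 369. The other complex II subunits were lower: SDHD, a membrane anchor, stood at 166, SDHA, the flavoprotein, at 105, and SDHC, the other anchor, at 88.5 CPM per kb.

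Several members are tissue-restricted isoforms, and most of these were silent. COX4I2, COX6A2 and COX7B2 had 0 counts in all 17 libraries, which allows up to 3 counts in each (0.082 CPM in the deepest input library). COX7A1, the muscle isoform, had at most 2 counts in any library. Their ubiquitous partners were abundant on the per-kb scale: COX4I1 stood at 1163, COX6A1 at 1519.9, COX7B at 1391 and COX7A2 at 1006 CPM per kb in WT input. Both readthrough genes also had 0 counts throughout. They share exon bases on the same strand with ATP5J2 and PTCD1 or with NDUFC2 and KCTD14. How reads in shared exons were assigned is not given in the sources used here, so these 0 counts do not show whether they were expressed. COX8C, the testis isoform of COX8A, had 38, 43 and 19 counts in WT input, 33, 18 and 16 in WT IP and 70 and 51 in WT IgG. In siTDP43 input it had 3, 2 and 3 counts and in the siTDP43 pull-downs 0 throughout, against 899 CPM per kb in WT input for COX8A. COX6B2, the testis isoform of COX6B1, and NDUFA4L2, the hypoxia-inducible relative of NDUFA4, stood at 1.21 and 1.31 CPM per kb in WT input. The copies UQCRBP1 and ATP5L2 stood at 0.396 and 0.676 CPM per kb. COX8C, COX6B2, NDUFA4L2 and UQCRBP1 passed the low-count filter in WT but not within siTDP43, and COX8C passed that of the inputs through its WT libraries only, so fitted folds for them are not given.

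In the inputs, TDP43 knockdown went with a mixed change across the complexes. All 4 complex II genes rose, and ATP synthase was split between its alpha subunit, which rose most, and its delta and epsilon subunits, which fell most. Of the 93 members, 86 were tested, 28 were higher and 42 lower in siTDP43 input (adjusted p under 0.05). The same call was made for 38.6% (higher) and 40.6% (lower) of all 14036 genes tested. The median log2 change was -0.14 for members and -0.05 for all genes. By complex, the calls were 13 higher and 21 lower of 39 tested in complex I, 4 and 0 of 4 in complex II, 3 and 6 of 10 in complex III, 1 and 8 of 14 in complex IV, and 7 and 7 of 19 in complex V. The 8 under complex IV include COX4NB, which is no subunit, and COX8C and COX6B2, which had few counts. The 21 lower under complex I include NDUFA4L2, also with few counts. After the trend with exon length was removed from each library the counts turned to 52 higher and 23 lower (41.3% and 37.7% of all genes), so the direction of the whole group depends on that choice.

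**Figure D2:**
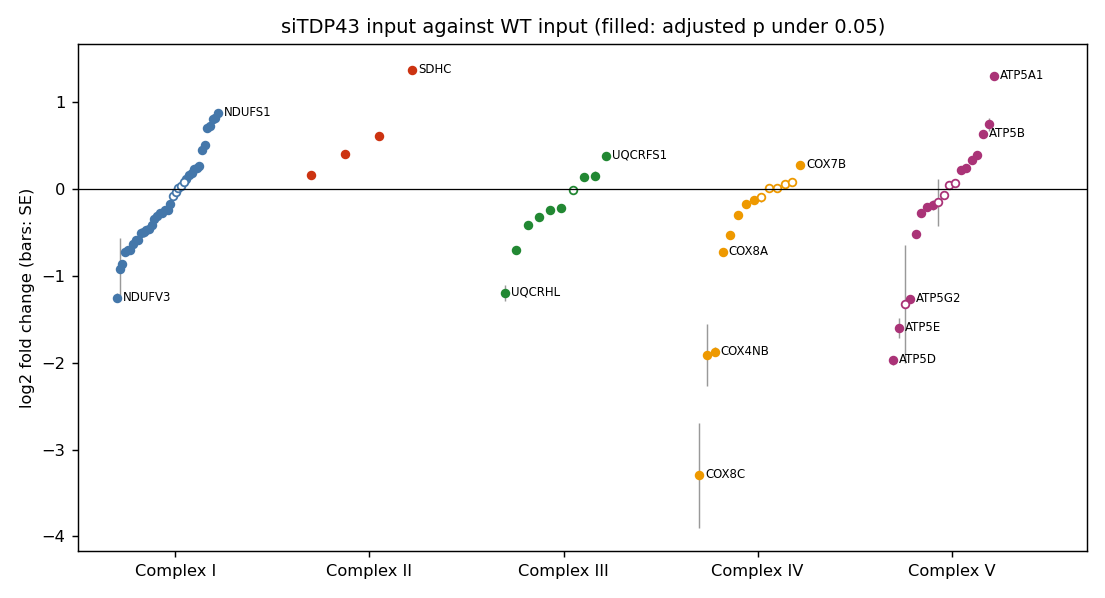
Log2 change of each tested member, siTDP43 input against WT input, by complex; points are genes in order of their change, filled where the adjusted p was under 0.05, and bars are SE. All 4 complex II genes lie above 0 and 8 of the 14 complex IV genes were called lower.

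Complex II oxidizes succinate in the tricarboxylic acid (TCA) cycle and feeds its electrons to ubiquinone. SDHC (hg19 chromosome 1, 161284166 to 161334535), a membrane anchor, had 244, 262 and 251 CPM in WT input and 647, 660.1 and 639.6 in siTDP43 input. The groups lay far apart, with a log2 change of 1.37, SE 0.039, adjusted p = 4.22e-24, the largest rise among members. SDHC shares exon bases on the opposite strand with C1orf192, and whether reads were counted by strand is not given in the sources used here. SDHA, the flavoprotein that binds succinate, rose by 0.61 (SE 0.041, adjusted p = 9.61e-15), SDHD by 0.41 (SE 0.04, adjusted p = 1.26e-10) and SDHB by 0.16 (SE 0.039, adjusted p = 3.66e-04) on the log2 scale.

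The F1 head of ATP synthase, which holds the catalytic sites, did not move as one. ATP5A1 (hg19 chromosome 18, 43664110 to 43684199), the alpha subunit, had 601, 637 and 631 CPM in WT input and 1523, 1521 and 1564 in siTDP43 input, a log2 change of 1.31, SE 0.036, adjusted p = 1.88e-24. ATP5B, the beta subunit that pairs with alpha, rose by 0.63 (SE 0.032, adjusted p = 9.31e-18). ATP5D (hg19 chromosome 19, 1241749 to 1244824), the delta subunit of the central stalk, had 382, 385 and 361 CPM in WT input and 105, 90.2 and 91.0 in siTDP43 input, a log2 change of -1.97, SE 0.049, adjusted p = 1.72e-25. ATP5E, the epsilon subunit beside it, went from 63.1, 55.3 and 58.9 to 15.1, 16.6 and 26.8 CPM, a change of -1.60 (SE 0.11, adjusted p = 4.46e-14). Neither pair of groups overlapped. ATP5E shares exons with the readthrough gene SLMO2-ATP5E and has a near-identical copy, ATP5EP2, so its counts may be split. ATP5C1, the gamma subunit of the stalk, had a log2 change of 0.067, SE 0.039, adjusted p = 0.117, past no threshold.

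The c ring, which turns as protons pass, has 3 genes for 1 mature protein. ATP5G2 went from 949.6, 962 and 947 to 382, 379.7 and 427 CPM, a log2 change of -1.26, SE 0.04, adjusted p = 8.40e-23. ATP5G3 rose by 0.24 (SE 0.039, adjusted p = 1.22e-06), and ATP5G1 had a change of -0.064, SE 0.042, adjusted p = 0.159, which did not pass. ATP5G2 was the most abundant of these per kb in WT input (740.3 CPM per kb, against 371 for ATP5G1 and 273 for ATP5G3).

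The core subunits of complex I, which carry electrons from NADH to ubiquinone, went both ways. NDUFS1 (hg19 chromosome 2, 206987803 to 207024243), the largest iron-sulfur subunit, had 165, 164 and 173 CPM in WT input and 297, 313 and 311 in siTDP43 input, a log2 change of 0.88, SE 0.041, adjusted p = 1.42e-18. NDUFV1, the NADH-binding subunit, rose by 0.27 (SE 0.042, adjusted p = 8.71e-07) and NDUFS3 by 0.24 (SE 0.042, adjusted p = 8.06e-06), the latter with exon bases shared with KBTBD4. NDUFS7 had a change of -0.63, SE 0.045, adjusted p = 5.52e-14, and NDUFS8 of -0.50, SE 0.048, adjusted p = 6.25e-11; both fell. NDUFV2 had a change of 0.0078, SE 0.043, adjusted p = 0.872 and did not pass.

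Among the accessory subunits of complex I, NDUFA9, which sits beside the ubiquinone site, went from 191, 200.4 and 198 to 341, 338 and 361 CPM (log2 change 0.82, SE 0.04, adjusted p = 4.11e-18). NDUFB3, in the membrane arm, went from 173, 164 and 166 to 255, 278 and 345 CPM (log2 change 0.81, SE 0.062, adjusted p = 3.61e-13). NDUFV3, a small accessory subunit of the NADH-binding module, went the other way, from 157, 151.02 and 151.1 to 64.3, 60.9 and 67.0 CPM (log2 change -1.25, SE 0.048, adjusted p = 9.51e-21). In each of the 3 genes the groups did not overlap. Of complex III, UQCRFS1, the Rieske iron-sulfur protein, rose by 0.38 (SE 0.039, adjusted p = 2.10e-10) and CYC1, cytochrome c1, had a change of -0.32, SE 0.04, adjusted p = 1.26e-08, a fall.

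Complex IV holds 1 gene that rose, COX7B (0.28, SE 0.046, adjusted p = 1.70e-06). COX8A fell (-0.72, SE 0.039, adjusted p = 7.84e-17), as did COX6C (-0.53, SE 0.043, adjusted p = 1.40e-12), COX4I1 (-0.29, SE 0.035, adjusted p = 6.67e-09), COX7A2L (-0.17, SE 0.038, adjusted p = 1.75e-04) and COX5B (-0.12, SE 0.038, adjusted p = 0.00445). COX4NB (hg19 chromosome 16, 85812231 to 85833148), listed under complex IV by its symbol alone, went from 123, 119.7 and 120.2 to 32.2, 33.6 and 32.9 CPM, a log2 change of -1.87, SE 0.053, adjusted p = 3.14e-24, the second largest fall among the members named. Of the members that are no subunit or are copies, ATP5S rose by 0.75 (SE 0.074, adjusted p = 1.26e-10) and UQCRHL, the copy of UQCRH, had a change of -1.20, SE 0.092, adjusted p = 4.02e-13. NDUFA4, now assigned to complex IV, fell by 0.27 on the log2 scale (SE 0.038, adjusted p = 1.54e-07).

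The other genes of the pathway were counted from fixed lists, beside 38.6% higher and 40.6% lower of all genes. In siTDP43 input, 13 of 18 genes of the TCA cycle and pyruvate dehydrogenase were higher and 5 lower, and 26 of 51 assembly factors were higher and 17 lower. Of 13 regulators of mitochondrial biogenesis, 8 were higher and 3 lower, with NRF1 at a log2 change of 1.35, GABPA at 0.91, TFAM, which packs mitochondrial DNA, at 0.78 and YY1 at -0.87. GABPA lies opposite ATP5J, with which it shares exon bases. Of the 4 other proteins of the system, 2 were higher and 2 lower, and CYCS (cytochrome c) had a change of -0.49. Of mitochondrial ribosomal proteins 44 of 76 were higher and 20 lower, and of cytosolic ribosomal proteins 9 of 82 were higher and 66 lower.

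In WT cells, more members lay below than above input in the anti-ac4C pull-down. For IP against input 87 members were tested, 7 were higher and 33 lower (adjusted p under 0.05 and a fold above 2), against 30.2% and 27.3% of all 14751 genes tested. The median log2 difference was -0.67 for members and 0.01 for all genes. For IgG against input 16 were higher and 33 lower, against 24.4% and 36.6% of all genes (medians -0.63 and -0.39), so the share of members below input there, 37.9%, was near that of all genes. For IP against IgG 11 were higher and 23 lower, against 35.2% and 17.8% (medians -0.36 and 0.29). The 11 include NDUFA4L2 and COX6B2 and the 23 include COX8C, all with few counts. Likewise, the counts for IgG against input include COX8C, UQCRBP1 and ATP5L2 (higher) and NDUFA4L2 and COX6B2 (lower). By complex, IP against input had 3 higher and 12 lower of 39 in complex I, 0 and 4 of 4 in complex II, 0 and 4 of 11 in complex III, 0 and 7 of 14 in complex IV, and 4 and 6 of 19 in complex V. Removing the GC trend left 5 higher and 39 lower in IP against IgG (27.3% and 28.9% of all genes), and removing the exon length trend 5 and 43 (28.0% and 29.2%). For IgG against input, removing the exon length trend turned the counts to 29 higher and 14 lower (4576 and 4255 of the 14751 genes).

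All 4 complex II genes were lower in WT IP than in input. SDHD (hg19 chromosome 11, 111957571 to 111966518) had 231, 224 and 227 CPM in WT input, 15.1, 15.7 and 14.3 in WT IP and 11.2 and 8.23 in WT IgG. Both pull-downs held little of it, with a log2 difference of -3.91, SE 0.074, adjusted p = 2.89e-23 for IP and -4.51, SE 0.10, adjusted p = 3.28e-21 for IgG, both against input. Of the other large subunits of the chain, UQCRC2, a core protein of complex III, had 359.8, 365 and 364 CPM in WT input, 61.1, 64.8 and 57.1 in WT IP and 16.3 and 23.0 in WT IgG. It was below input in IP (-2.56, SE 0.069, adjusted p = 2.05e-20) and above IgG (1.62, SE 0.10, adjusted p = 9.62e-13). CYC1 (-2.60, SE 0.055, adjusted p = 2.09e-22), NDUFS4, a regulatory complex I subunit (-2.59, SE 0.076, adjusted p = 1.27e-19), and ATP5C1 (-2.51, SE 0.061, adjusted p = 3.34e-21) were the other members furthest below input in IP.

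Both catalytic genes of complex III and 3 of the 5 F1 genes of ATP synthase were below input in WT IP. UQCRFS1 lay at -2.19 (SE 0.056, adjusted p = 7.43e-21) against input, ATP5A1 at -2.10 (SE 0.051, adjusted p = 3.14e-21) and ATP5B at -1.83 (SE 0.048, adjusted p = 1.65e-20). The 3 c ring genes passed in neither direction there: ATP5G1 lay at -0.34, ATP5G2 at -0.38 and ATP5G3 at -0.24, while ATP5G3 was higher in IP than in IgG (1.12, SE 0.053, adjusted p = 4.52e-15). Of the complex I core, NDUFS1 (-2.42) and NDUFV2 (-1.46) were below input, while NDUFS3 (-0.99) and NDUFV1 (-0.39) did not pass the fold of 2.

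The 7 members above input in WT IP were NDUFC2, NDUFB2, ATP5EP2, NDUFS6, ATP5D, ATP5I and ATP5L2. Among them ATP5L2 had few counts, with 22, 6 and 26 in WT input and 38, 79 and 40 in WT IP. NDUFC2, an accessory subunit of complex I, had 52.4, 54.0 and 56.2 CPM in WT input, 188, 218 and 220.4 in WT IP and 888 and 979 in WT IgG. The IgG libraries were the highest, so that IP was above input (1.95, SE 0.062, adjusted p = 4.81e-19) and below IgG (-2.18, SE 0.064, adjusted p = 9.38e-19). NDUFC2 shares exon bases with the readthrough NDUFC2-KCTD14 on its own strand and THRSP on the other. NDUFS6, a zinc-binding subunit, followed the same order with 205, 207 and 209 CPM in input, 496, 492 and 508 in IP and 1081 and 1145 in IgG (IP against input 1.28, SE 0.046, adjusted p = 7.03e-18). NDUFB2 lay at 1.89 (SE 0.048, adjusted p = 7.43e-21) against input and 0.56 against IgG, and it shares exon bases with LOC100134713. ATP5D lay at 1.19 (SE 0.049, adjusted p = 7.67e-17) against input, but at -1.42 once the GC trend of each library was removed, and 69.6% of its exon bases are G or C. ATP5EP2, the copy of ATP5E, had 3.27, 1.78 and 2.48 CPM in input, 6.94, 8.57 and 7.98 in IP and 53.1 and 41.6 in IgG, the largest excess of IgG over input among members named (4.28, SE 0.19, adjusted p = 3.98e-16).

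Of the 11 members above WT IgG in IP, 5 were at the same time below input, and the share of all genes with both calls is not given here. NDUFB4, a membrane-arm subunit, had 357, 361 and 361 CPM in input, 104, 117 and 108 in IP and 27.9 and 27.8 in IgG. IP was above IgG (1.96, SE 0.078, adjusted p = 1.89e-16) and below input (-1.70, SE 0.054, adjusted p = 4.81e-19). COX8A lay at 1.67 (SE 0.063, adjusted p = 6.58e-17) against IgG and NDUFA7, in the peripheral arm, at 1.20 (SE 0.072, adjusted p = 3.66e-13). SDHA lay at 1.15 (SE 0.10, adjusted p = 2.88e-10) against IgG, and at 0.93 without WT IgG replicate 1, under the fold of 2. NDUFB5 (-2.15, SE 0.074, adjusted p = 1.25e-17), NDUFA13, also known as GRIM19 (-1.60, SE 0.05, adjusted p = 2.74e-18), and NDUFV1 (-1.57, SE 0.056, adjusted p = 2.38e-17) were below IgG.

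After TDP43 knockdown, members tended to lie above input in both pull-downs. For siTDP43 IP against input 83 members were tested, 37 were higher and 5 lower, against 26.8% and 25.4% of all 12746 genes tested (median log2 difference 0.81 for members and -0.09 for all genes). For IgG against input 42 were higher and 11 lower, against 24.7% and 41.0% (medians 1.01 and -0.58). ATP5L2, with at most 20 counts in any siTDP43 library, is among the higher calls of both contrasts against input. For IP against IgG only SDHD and NDUFA12 were higher and 7 were lower, against 34.0% and 15.0% (medians -0.25 and 0.33). With the GC trend removed, IP against IgG gave 1 higher and 33 lower, against 24.7% and 29.0% of all genes. By complex, IP against input had 17 higher and 2 lower of 38 in complex I, 0 and 2 of 4 in complex II, 5 and 1 of 10 in complex III, 7 and 0 of 12 in complex IV, and 8 and 0 of 19 in complex V. Scaling by total counts gave 29 higher and 13 lower in IP against input, 31 and 17 in IgG against input, and 5 and 3 in IP against IgG, where all genes had 21.7% and 33.9%, 18.6% and 50.4%, and 37.4% and 12.2%. That scaling moved the median of all genes to -0.43, -1.13 and 0.54 in these 3 contrasts. Removing the exon length trend left 16 higher in IP and 24 in IgG, both against input (25.8% and 33.5% of all genes), so the excess over the share of all genes was not seen with that choice.

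ATP5I (hg19 chromosome 4, 666225 to 668127), the e subunit in the membrane part of ATP synthase, stood out in this direction. It had 354, 340.2 and 337 CPM in WT input, 726, 767 and 743 in WT IP and 1974 and 1921 in WT IgG. In siTDP43 it had 279, 261 and 309 CPM in input, 4464, 4043 and 4152 in IP and 9056, 8815 and 9290.4 in IgG. IgG was the highest in both genotypes, and no groups overlapped within siTDP43. In siTDP43, IP lay 4.05 (SE 0.062, adjusted p = 1.17e-22) above input and IgG 5.23 (SE 0.065, adjusted p = 2.43e-24) above input on the log2 scale, and IP against IgG was -1.17, SE 0.055, adjusted p = 3.11e-13. ATP5I has an exon length of 365 bases.

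NDUFB1, a short accessory subunit of complex I, had 151.4, 150.4 and 191 CPM in siTDP43 input, 1310.5, 1306 and 1282 in IP and 2409.8, 2431 and 2434 in IgG. Its log2 difference was 3.14, SE 0.076, adjusted p = 7.93e-20 for IP and 4.11, SE 0.079, adjusted p = 1.16e-21 for IgG, both against input. ATP5EP2 (3.97, SE 0.20, adjusted p = 5.56e-14), NDUFB2 (2.44, SE 0.063, adjusted p = 2.90e-19) and NDUFC2 (2.41, SE 0.081, adjusted p = 3.79e-17) were the other members furthest above input in IP. The pair NDUFA13 (3.53, SE 0.053, adjusted p = 3.24e-23) and NDUFB7 (3.44, SE 0.085, adjusted p = 8.79e-20), accessory subunits of complex I, were far above input in IgG. ATP5EP2 (-1.81, SE 0.17, adjusted p = 6.87e-09), NDUFA3 (-1.46, SE 0.069, adjusted p = 3.11e-13), NDUFA13 (-1.29, SE 0.049, adjusted p = 2.03e-14), ATP5I and NDUFB11 (-1.09, SE 0.068, adjusted p = 1.33e-11) were lower in IP than in IgG, as were NDUFA11 and NDUFB7. Under total count scaling ATP5I (-0.96) and NDUFB11 (-0.88) no longer passed the fold of 2 there.

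Complex II and some core subunits stayed below input. SDHD had 286, 309 and 306 CPM in siTDP43 input, 83.96, 65.7 and 82.7 in IP and 15.4, 16.2 and 14.9 in IgG, so IP was below input (-1.80, SE 0.09, adjusted p = 3.98e-14) and above IgG (2.25, SE 0.14, adjusted p = 1.37e-11). SDHA had 398, 386 and 362 CPM in input, 113, 106 and 96.9 in IP and 54.7, 67.2 and 52.3 in IgG (IP against input -1.70, SE 0.081, adjusted p = 1.66e-14). All 4 complex II genes were lower in IgG than in input, and 2 of these, SDHA and SDHD, were lower in IP. UQCRC2 (-1.58, SE 0.092, adjusted p = 6.44e-13) and NDUFS1 (-1.13, SE 0.076, adjusted p = 7.96e-12) were also below input in IP. NDUFA12, an accessory subunit of the peripheral arm, was below input in IgG (-1.92, SE 0.094, adjusted p = 2.19e-14) and above IgG in IP (1.64, SE 0.095, adjusted p = 5.49e-12). Of the 12 complex IV genes tested, 7 were higher in IP and 9 in IgG, with none lower than input in either.

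**Figure D3:**
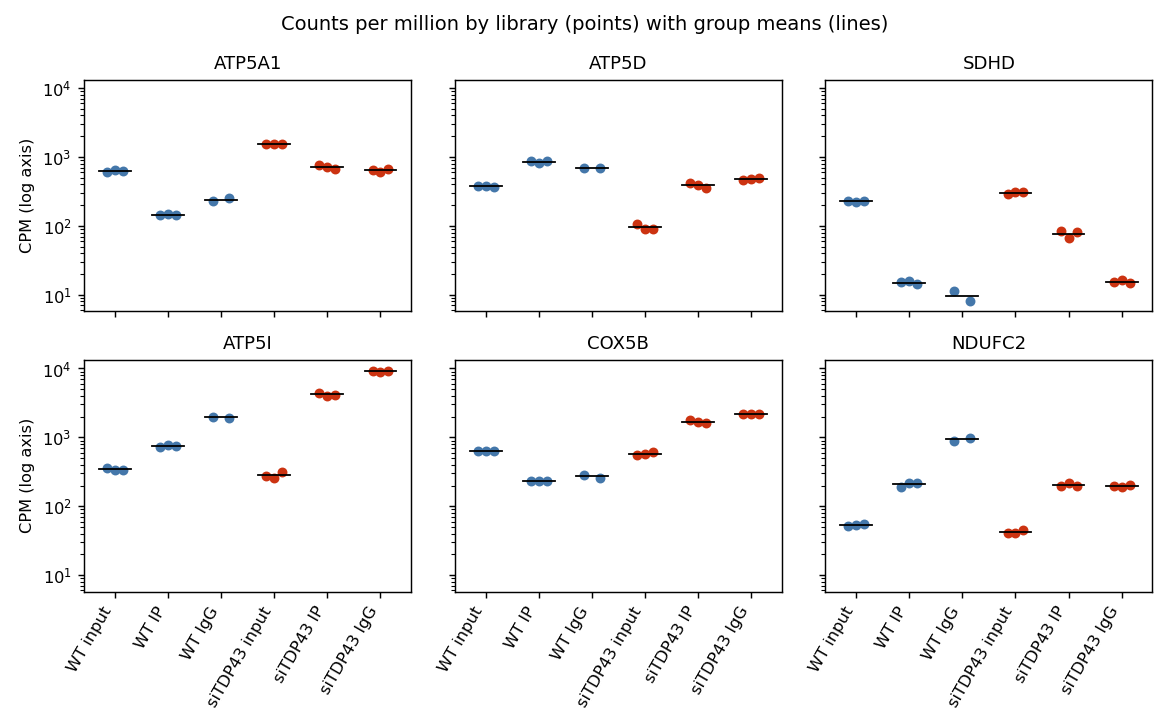
CPM (log axis) of ATP5A1, ATP5D, SDHD, ATP5I, COX5B and NDUFC2 in each of the 17 libraries; points are libraries and lines are group means. ATP5I reaches its highest level in siTDP43 IgG, SDHD is lower in every pull-down group than in either input, and ATP5A1 and ATP5D move in opposite directions between the inputs.

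The change of the IP over input difference from WT to siTDP43 was positive for most members. In the fit of all 17 libraries it was higher for 76 and lower for 3 of 87 members, against 31.5% and 36.3% of all 15165 genes tested (medians 1.40 and -0.19). The change of IgG over input, an interaction added after the data were seen, was higher for 64 and lower for 8 members, against 27.0% and 37.4% (medians 1.34 and -0.48). For IP over IgG 41 members had a higher and 28 a lower change, against 34.9% and 25.9% (medians 0.23 and 0.24). With DESeq2 size factors these were 32 and 36, against 31.3% and 29.2% of all genes. All of these share the same input, IP or IgG libraries, so they are not independent of each other. Of the 3 members lower for IP over input, NDUFA4L2 and COX6B2 had groups at or under 3 counts a library. COX6B2 is also among the 64 higher for IgG over input and the 28 lower for IP over IgG.

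COX5B (hg19 chromosome 2, 98262521 to 98264657), a peripheral subunit of complex IV, turned its direction. It had 635, 643 and 629 CPM in WT input, 235, 233 and 229 in WT IP and 288 and 256 in WT IgG. In siTDP43 it had 555, 578 and 612 CPM in input, 1768, 1655 and 1632 in IP and 2184, 2183 and 2156 in IgG. Both pull-downs lay below input in WT and above it in siTDP43, and the change of IP over input was 2.99, SE 0.077, adjusted p = 1.33e-28. NDUFA7 (2.27, SE 0.092, adjusted p = 1.99e-22), COX7C (2.50, SE 0.085, adjusted p = 6.78e-25) and COX6C (2.58, SE 0.096, adjusted p = 1.26e-23) were likewise lower than input in WT IP and higher in siTDP43 IP. Of all members, 7 were above input in the IP of both genotypes and 4 (SDHD, UQCRC2, NDUFS1 and SDHA) below in both. The 7 include ATP5L2, which had few counts. The share of all genes with such pairs of calls is not given here.

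NDUFS4 had a change of IP over input as large as that of COX5B, 2.999, SE 0.13, adjusted p = 2.72e-21. It had 116, 122 and 116 CPM in WT input and 18.9, 21.1 and 18.4 in WT IP, and 74.96, 72.5 and 86.8 in siTDP43 input and 93.8, 104 and 113 in siTDP43 IP. The WT IP libraries were the low ones of these 4 groups. ATP5I (2.78, SE 0.075, adjusted p = 7.48e-28), NDUFA4 (2.62, SE 0.084, adjusted p = 1.33e-25) and NDUFB5 (2.59, SE 0.11, adjusted p = 1.72e-21) came next beside COX5B.

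For IP over IgG the changes went both ways, also within complexes. Of the complex I core, NDUFS1 was higher by 2.11 (SE 0.14, adjusted p = 3.07e-16), and NDUFS3 did not pass (-0.21, SE 0.13, adjusted p = 0.186). Both catalytic genes of complex III were higher (CYC1 1.70, SE 0.10, adjusted p = 7.21e-17), and SDHB (2.32, SE 0.099, adjusted p = 3.25e-21), NDUFB5 (2.34, SE 0.13, adjusted p = 2.04e-18) and NDUFC2 (2.19, SE 0.11, adjusted p = 1.05e-19) had the largest positive changes. All 3 c ring genes were lower: ATP5G1 at -1.77 (SE 0.10, adjusted p = 2.74e-17), ATP5G3 at -1.49 (SE 0.079, adjusted p = 1.28e-18) and ATP5G2 at -0.63 (SE 0.094, adjusted p = 2.27e-07). NDUFB4 (-2.23, SE 0.12, adjusted p = 1.95e-18), COX8A (-2.12, SE 0.10, adjusted p = 7.86e-20) and NDUFA3 (-1.99, SE 0.095, adjusted p = 7.83e-20) were the other members furthest down.

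For IgG over input, NDUFB4 (3.83, SE 0.12, adjusted p = 1.28e-25), NDUFA7 (3.75, SE 0.11, adjusted p = 1.25e-26) and COX8A (3.66, SE 0.10, adjusted p = 7.09e-27) rose most. COX8A had 465, 453 and 449 CPM in WT input and 85.5 and 89.8 in WT IgG, against 286, 263 and 278 in siTDP43 input and 688, 651 and 674 in siTDP43 IgG. The WT IgG libraries were the low ones and the siTDP43 IgG libraries the high ones. COX6C (3.18, SE 0.11, adjusted p = 1.25e-24) and NDUFS4 (3.17, SE 0.17, adjusted p = 2.23e-18) followed, while NDUFC2 (-1.89, SE 0.11, adjusted p = 7.50e-18), ATP5S (-1.43, SE 0.19, adjusted p = 1.82e-08), NDUFV1 (-1.23, SE 0.11, adjusted p = 1.43e-12) and NDUFS1 (-0.97, SE 0.13, adjusted p = 3.83e-08) were among those with the largest negative changes. NDUFS1 was at -0.015 and no longer passed once the GC trend was removed.

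**Figure D4:**
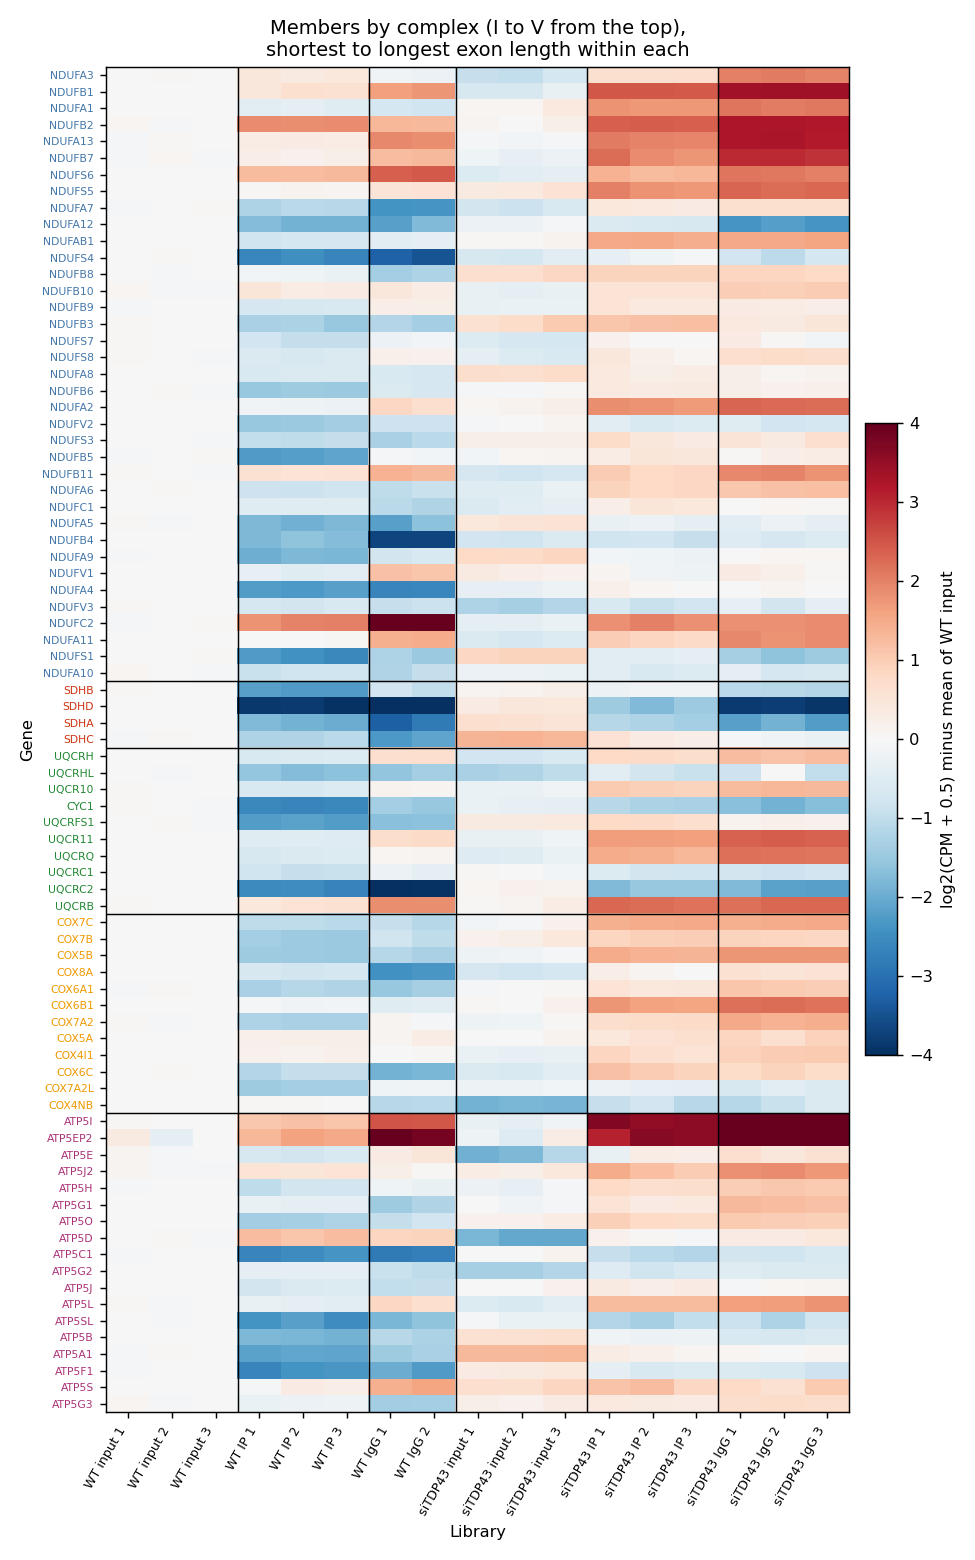
Log2(CPM + 0.5) of members with a group mean of at least 10 CPM, minus the mean of WT input, in each of the 17 libraries (columns), with members in rows by complex; colour stops at 4 in both directions. Replicates of a group look alike, and ATP5I and ATP5EP2 are above WT input in all pull-down groups while SDHD and SDHA lie below it.

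A gene is called ac4C(+) in the study where IP exceeds both controls. With edgeR at an adjusted p under 0.05 and a fold above 2 against both, none of the tested members was ac4C(+), 0 of 87 in WT and 0 of 83 in siTDP43, against 15.6% and 10.3% of all genes tested. The count was also 0 with unadjusted p-values and the same fold, and 0 with the DESeq2 Wald test. Without the fold limit it was 5 in WT (COX4I1, ATP5D, NDUFA3, ATP5J2 and NDUFB2) and 6 in siTDP43 (UQCRFS1, NDUFB3, ATP5J, NDUFC1, NDUFS4 and COX6C). The share of all genes under this looser rule is not given here, and the 15.6% and 10.3% are for the stricter rule. Of the 5 members in WT, COX4I1 had 947, 969 and 959 CPM in WT input, 1081, 1052 and 1110.3 in WT IP and 976 and 1000.0 in WT IgG. Its IP difference was 0.18 (SE 0.044, adjusted p = 5.24e-04) against input and 0.11 (SE 0.049, adjusted p = 0.0435) against IgG.

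Members were above one control and below the other in several cases. The share of all genes with such pairs of calls is not given here. In WT IP, NDUFC2, ATP5EP2, ATP5I and NDUFS6 were above input and below IgG, and SDHC, UQCRC2, NDUFA7, NDUFB4 and SDHA above IgG and below input. In siTDP43 IP, 7 were above input and below IgG (ATP5EP2, NDUFA11, NDUFB7, NDUFA13, NDUFA3, ATP5I and NDUFB11), and SDHD alone was above IgG and below input.

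The study names UGUGCG as letters that TDP43 prefers and UCCCAGCU as an ac4C motif, so the exons of the table (hg19, gene strand) were searched for these as DNA letters, TGTGCG and TCCCAGCT. TGTGCG stood in 18 of 93 members (19.4%) and in 25.9% of the 23346 genes with exon sequence. TCCCAGCT stood in 13 members (13.98%, against 16.7%), and the TG repeat TGTGTGTG in 6 (6.45%, against 15.3%); the letters of the repeat can run into those of TGTGCG. Per 10 kb of exon, TGTGCG occurred 1.60 times in members and 1.19 times in all genes, and TCCCAGCT 1.18 and 0.686 times. The exon sites of 4 members above are shown with TGTGCG in capitals, 30 bases each on the gene's strand.
ATP5I, chr4:668077-668106, minus strand: gctttgctggctTGTGCGgcatcctgctcc
NDUFB1, chr14:92583944-92583973, minus strand: cttacttcagatTGTGCGggaccactgggt
NDUFS6, chr5:1816099-1816128, plus strand: gctcgctggttcTGTGCGaagggtattcct
SDHA, chr5:251497-251526, plus strand: aacctgatgctgTGTGCGctgcagaccatc
ATP5I, NDUFB1 and NDUFS6 were above input in siTDP43 IP, and SDHA was below. The median change of IP over input from WT to siTDP43 was 1.505 for the 18 members with TGTGCG and 1.39 for the 69 tested without. In some other contrasts the medians with and without lay further apart. They were 0.24 and 1.26 in siTDP43 IgG against input, -0.68 and -0.03 in WT IP against IgG, and 0.12 and -0.17 in the inputs. The part of the motif in these differences was not tested.

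Among members, more of the short ones than of the long ones were above input in the siTDP43 pull-downs. Of 41 tested members with exon length at or under 921 bases, 30 were higher and 1 lower in siTDP43 IgG than in input, and of 42 longer ones 12 were higher and 10 lower (all genes 24.7% and 41.0%). In siTDP43 IP the counts were 25 and 0 of 41 against 12 and 5 of 42 (all genes 26.8% and 25.4%). The share of longer members above input, 28.6% in each pull-down, was near that of all genes. Their share below input was smaller than that of all genes in both pull-downs. Length did not order every member: NDUFC2, with 2475 bases, was among those furthest above input in IP. Across members, Spearman's rho between exon length and the log2 difference was -0.52 for siTDP43 IP against input and -0.52 for IgG against input (n = 83 genes in the same libraries), while over all genes tested it was -0.05 and -0.11 (n = 12746). In WT it was -0.29 and -0.28 over 87 members and 0.20 and 0.20 over 14751 genes. Genes are not independent replicates, so these are descriptions without a test, and the part of length in the member differences was not tested beyond the fits with its trend removed.

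**Figure D5:**
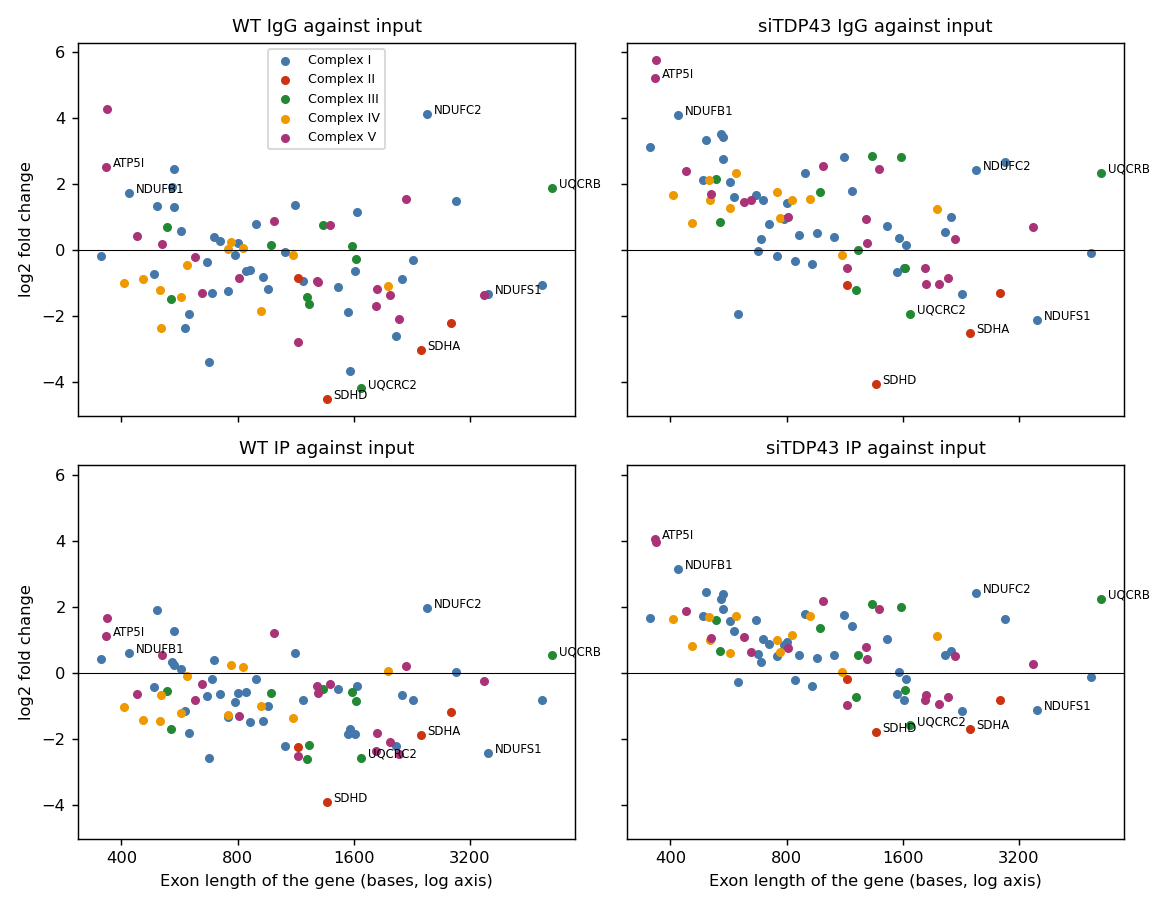
Log2 difference against input of IgG (top) and IP (bottom) in WT (left) and siTDP43 (right), plotted on exon length (bases, log axis) for members with a mean of at least 100 counts; points are genes, coloured by complex. In siTDP43, ATP5I (365 bases) lies far above 0 in both pull-downs and the longer SDHA and NDUFS1 lie below 0.

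Other short, abundant mRNAs were compared on the same contrast. In siTDP43 IP against input, 62 of 81 cytosolic ribosomal protein genes were higher and 0 lower (median 1.69), while of 76 mitochondrial ribosomal protein genes 14 were higher and 6 lower (median 0.07). In siTDP43 IgG against input these lists had 64 and 0, and 22 and 16. Of the 18 genes of the TCA cycle and pyruvate dehydrogenase, the pathway that supplies complexes I and II, 0 were higher in either pull-down while 6 were lower in IP and 9 in IgG. Of 51 assembly factors, 13 were higher and 8 lower in IP, and 16 and 14 in IgG. All genes had 26.8% higher and 25.4% lower in IP, and 24.7% and 41.0% in IgG.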

How the data were processed

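Poly(A) RNA of HEK293T cells was measured by acRIP-seq in 17 libraries, grouped by sample title. The values are unnormalized counts by gene as deposited, which the authors made from SMART-seq2 libraries with Trim Galore 0.6.7, STAR 2.7.10a on hg19 and featureCounts 2.0.2 on uniquely aligned reads (versions per the submitters' processing notes). The annotation release, strand setting and handling of read pairs are not given in the sources used here. From 81.3 to 95.9% of counts between 1 and 20 were even, which is how a table looks when both mates of a fragment are counted. No molecular identifiers were used, and tests do not measure how many RNA molecules were sampled. Per the study's methods, in vitro transcribed beta-globin RNA holding ac4C was added before the pull-down; it was not used for scaling here, and enrichment is relative to the rest of each library.

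Tests were run with edgeR 4.0.16 under R 4.3.3 (quasi-likelihood F test, two-sided, TMM, filterByExpr with a minimum count of 10, Benjamini-Hochberg over all genes tested). Inputs were fitted in 6 libraries, WT in 8, siTDP43 in 9 and the changes between genotypes in 17. Calls needed an adjusted p under 0.05 and, between library kinds within a genotype, a fold above 2. The study used DESeq2 and FPKM, so its calls can differ. No replicate duplicated another by a chi-square test of counts. The members and gene lists were chosen with earlier results of these data known. The genes given with statistics were, in each contrast, the 5 members with the largest rise and fall among those called, with 100 or more counts on average and groups that did not overlap, beside the highest member of each complex per kb and the core, catalytic, c ring, isoform and non-subunit members. Alternatives were the DESeq2 1.42.0 Wald test and size factors, scaling by total counts, every gene kept or only those with 50 or more counts on average, halved counts, a GC or exon length trend removed, all libraries in 1 fit, a replicate block and leaving out each library. The change of IgG over input and counts over the 84 subunits or over members without exon overlap were added after seeing the data. On simulated counts 75.1 to 98.0% of changed genes were recovered, with 0 to 5.85% of calls false. There, 190 to 197 tested genes were changed by a fold of 3, far fewer than were called in the real contrasts. The simulation therefore cannot give the rate of false calls in these data. RefSeq matched 93 members by symbol or synonym, and 72 had a promoter. The values of 1 member are not reported here by name, and it is left out of the heat map.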

Additional observations from a re-analysis of the deposited data

Results flagged for a closer look

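The differences below compare the same contrast in siTDP43 and in WT, tested as an interaction in the edgeR fit of all 17 libraries and called at an adjusted p under 0.05. The change of IP over input was higher in siTDP43 for 76 members and lower for 3 (31.5% and 36.3% of all genes), that of IP over IgG higher for 41 and lower for 28 (34.9% and 25.9%), and that of IgG over input higher for 64 and lower for 8 (27.0% and 37.4%).

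For 4 members IP passed below input in WT and above it in siTDP43. The share of all genes with both calls is not given here, so whether 4 is many cannot be told. Singly, 27.3% of all genes were below input in WT IP and 26.8% above it in siTDP43 IP. NDUFA7 had a log2 difference of -1.14 in WT and 1.27 in siTDP43, with a change of 2.27. COX5B had -1.44 and 1.69, with a change of 2.99. COX7C had -1.02 and 1.62, with a change of 2.50, and COX6C had -1.01 and 1.72, with a change of 2.58.

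For 7 members the same held for control IgG against input, again without the share of all genes with both calls. Singly, 36.6% of all genes were below input in WT IgG and 24.7% above it in siTDP43 IgG. COX8A had -2.35 in WT and 1.51 in siTDP43 (change 3.66), NDUFA7 had -2.35 and 1.60 (change 3.75) and COX6C had -1.83 and 1.55 (change 3.18). COX5B had -1.20 and 2.13 (change 3.13), ATP5G1 -1.28 and 1.53 (change 2.61), COX6A1 -1.40 and 1.27 (change 2.47) and COX4NB -1.07 and 1.26 (change 2.12). The IgG pull-down uses no ac4C antibody, and IgG and IP moved in the same direction for NDUFA7, COX5B and COX6C. Within each genotype the values come from that genotype's own fit, so the change is not exactly their difference. The cause was not tested, and genotype and any difference between the days or handling of the libraries cannot be told apart.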

How the results depend on the processing

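Across the alternatives, 408 values of the main results stayed the same and 27 moved. Counts of members were taken as the same within 1.5 times, and the TARDBP difference where it kept its call. With the exon length trend removed, members in the inputs were 52 higher and 23 lower (41.3% and 37.7% of all genes). In WT, IP against IgG gave 5 and 43 and IgG against input 29 and 14, with the calls over all genes as given above. In siTDP43, IP against input gave 16 and 8 (25.8% and 23.7% of all genes) and IgG against input 24 higher (33.5%). The lower calls became 11 for the change of IP over input and 17 for that of IgG over input (27.9% and 28.2% of all genes). With the GC trend removed, WT IP against IgG gave 5 higher and 39 lower, WT IgG against input 18 lower, siTDP43 IP against IgG 1 higher and 33 lower, and siTDP43 IgG against input 3 lower. The lower calls were then 1 for the change of IP over input and 4 for IgG over input (30.2% and 28.7% of all genes). ATP5D in WT IP against input reversed, from 1.19 to -1.42. With total count scaling, siTDP43 IP against input gave 13 lower (33.9% of all genes) and IP against IgG 5 higher and 3 lower (37.4% and 12.2%). For siTDP43 IgG against input 17 were lower (50.4%). For the changes of IP and IgG over input 5 and 16 were lower (43.5% and 42.2%). The fit of all 17 libraries gave 9 lower in siTDP43 IP against input (30.7% of all genes). A mean of at least 50 counts gave 1 lower for the change of IP over input (37.1% of all genes). The cause of these shifts was not tested.

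Leaving out 1 library at a time, members higher and lower ranged from 26 to 33 and 41 to 44 in the inputs, 7 to 8 and 32 to 34 in WT IP against input, 9 to 12 and 22 to 24 in WT IP against IgG, and 15 to 16 and 33 to 34 in WT IgG against input. The ranges were 35 to 38 and 5 to 6 in siTDP43 IP against input, 2 to 3 and 6 to 7 in siTDP43 IP against IgG, and 39 to 43 and 11 in siTDP43 IgG against input. For the changes they were 75 to 78 and 2 to 3 (IP over input), 38 to 42 and 27 to 32 (IP over IgG), and 64 to 66 and 7 to 8 (IgG over input). The ac4C(+) count was 0 in every alternative that kept the fold of 2 (5 in WT and 6 in siTDP43 without it), and TARDBP ranged from -0.60 to -0.54. Of the members named with a contrast, SDHA in WT IP against IgG alone lost its call when a library was left out (0.93, without WT IgG replicate 1). More of these calls were lost under other alternatives: 11 with the GC trend removed, beside the reversal of ATP5D. Removing the exon length trend lost 6 and total count scaling 2.

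Replicate numbers did not pair the libraries: residuals of same-numbered libraries correlated at -0.026 to 0.064 over 19 pairs and those of other pairs at -0.072 to 0.043. With the replicate block members in the inputs were 29 higher and 43 lower (38.3% and 40.2% of all genes), and no count moved by over 1.5 times. Depth limited members of few counts, and siTDP43 IgG was the shallowest group.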

Other observations

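Of the mitochondrial biogenesis regulators, 5 of 12 were higher and 3 lower than input in siTDP43 IP (26.8% and 25.4% of all genes), and 2 were higher and 6 lower in siTDP43 IgG (24.7% and 41.0%). Against IgG, 5 were higher in siTDP43 IP and 1 lower, with a median log2 difference of 0.64, where members had -0.25. The TCA cycle and pyruvate dehydrogenase genes lay below input in WT as well, with 14 of 18 lower in IP and 11 in IgG (27.3% and 36.6% of all genes) and medians of -1.76 for both. Of the 4 other proteins of the system (CYCS, ATPIF1, USMG5 and C14orf2), 3 were higher than input in siTDP43 IP and the same number in siTDP43 IgG, with medians of 1.51 and 2.00. ATPIF1, the inhibitor of ATP synthase reversal, had 626, 612 and 599.9 CPM in WT input, 1104, 1145 and 1106 in siTDP43 IP and 1406.5, 1406.5 and 1391 in siTDP43 IgG.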
